A study of Mus musculus with 8 samples.

Results

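The genes described here encode subunits of the mitochondrial respiratory chain, complexes I to IV, and of the ATP synthase, complex V. Members were the genes with exactly 1 symbol on the array whose symbol began with Ndufa, Ndufb, Ndufc, Ndufs or Ndufv and a number, was Sdha, Sdhb, Sdhc or Sdhd, or began with Uqcr, with Cox4 to Cox8 or with Atp5. This gave 81 of 18193 genes, of which 33 belonged to complex I, 4 to complex II, 8 to complex III, 19 to complex IV and 17 to complex V. Ndufa4 and its paralogue Ndufa4l2 were counted in complex IV, to which the Ndufa4 protein belongs despite its name. Of the 81 genes, 74 passed the filter on low signals and were tested with 10916 genes in all.

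RNA came from NS5 cells, a mouse neural stem cell line labelled as brain of embryonic day 11.5, and was hybridized to 8 Affymetrix arrays. The cells were plated with FGF2 and EGF for 24 h, kept free of growth factors for 4 h and treated for 48 h. The groups were Ethanol and TGF-beta1 (ethanol at 400 mg/dl), TGF-beta1 alone, Ethanol and FGF2 (the same ethanol dose) and FGF2 alone, with 2 arrays each. The labelled dose of either growth factor was 10 ng per ul, a unit the data cannot check. All groups shared the single cell line and its adhesive culture. Nothing in the labels tells if a group's 2 arrays came from different cultures, and p-values then measure the spread between these samples, which may be technical.

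The respiratory chain lies in the inner mitochondrial membrane. Complex I takes electrons from NADH and complex II takes them from succinate, both pass them to ubiquinone, complex III passes them on to cytochrome c, and complex IV hands them to oxygen. Complexes I, III and IV pump protons, and complex V lets these flow back to make ATP. Most subunits are encoded in the nucleus, and those encoded in mitochondrial DNA were outside the rule. Several nuclear genes of the chain are known to be bound at their promoters by NRF1, by GABP (an ETS factor) and by YY1. Neural stem cells are known to draw much of their energy from glycolysis and to raise oxidative phosphorylation as they differentiate into neurons.

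The promoters were read to see what sequence the members share beyond the symbols that chose them. RefSeq windows on GRCm38.p6, reaching from 250 bases before to 50 bases after each start, were given for 66 of the 81 genes and made up 71 windows. The NRF1 core, written as GCGCA, any base and GCGC, stood on either strand of 22.5% of the members' windows and of 4.6% of 32851 windows of all genes. The letters AAGATGGCG, of YY1, stood in 8.45% and 1.4%. The letters CCGGAAGT, of ETS factors, stood in 7.04% and 3.89%. At least 1 of the 3 stood in 36.6% of the members' windows and in 9.24% of all windows. The windows of all genes covered 27025 genes, not only those tested on the array. They were not matched to the members in expression or in content of G and C. A match is a description of letters and not of a bound site, and no protein binding was measured. The 5 sequences below, 1 for each complex, show the forms in which the NRF1 and ETS letters occur. Only tested members with a whole match in the 250 bases before the start were considered. In each complex the 1 with the smallest p for ethanol within TGF-beta1 was then taken, so the 5 sequences are not typical of their complexes. They are the 250 bases before the RefSeq start of Ndufa5 (chr6:24527691-24527940), Sdha (chr13:74350241-74350490), Uqcr11 (chr10:80406822-80407071), Cox6a1 (chr5:115348959-115349208) and Atp5k (chr5:108434400-108434649), all on the minus strand of GRCm38.p6 and written 5′ to 3′ in the direction of the gene. Capitals mark the motif letters, which were CCGGAAGT in Uqcr11 and the NRF1 core in the other genes.
Ndufa5: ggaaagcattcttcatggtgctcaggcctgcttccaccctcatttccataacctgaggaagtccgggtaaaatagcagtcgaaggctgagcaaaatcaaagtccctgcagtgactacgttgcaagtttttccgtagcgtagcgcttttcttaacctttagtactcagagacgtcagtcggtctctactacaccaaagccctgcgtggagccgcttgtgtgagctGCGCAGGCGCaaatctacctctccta
Sdha: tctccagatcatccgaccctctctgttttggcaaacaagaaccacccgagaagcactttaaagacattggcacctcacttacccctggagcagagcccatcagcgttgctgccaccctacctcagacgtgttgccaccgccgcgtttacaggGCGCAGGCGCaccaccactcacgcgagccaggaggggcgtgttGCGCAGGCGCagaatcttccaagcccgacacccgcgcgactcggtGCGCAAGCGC
Uqcr11: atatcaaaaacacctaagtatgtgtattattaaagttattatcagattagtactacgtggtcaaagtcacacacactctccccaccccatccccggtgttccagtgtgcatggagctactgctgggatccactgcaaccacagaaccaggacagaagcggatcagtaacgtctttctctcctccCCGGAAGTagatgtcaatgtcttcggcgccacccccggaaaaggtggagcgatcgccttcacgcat
Cox6a1: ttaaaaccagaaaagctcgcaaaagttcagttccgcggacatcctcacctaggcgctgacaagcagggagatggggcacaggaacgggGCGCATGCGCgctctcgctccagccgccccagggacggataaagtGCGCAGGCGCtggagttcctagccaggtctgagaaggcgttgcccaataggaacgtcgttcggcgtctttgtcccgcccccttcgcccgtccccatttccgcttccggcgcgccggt
Atp5k: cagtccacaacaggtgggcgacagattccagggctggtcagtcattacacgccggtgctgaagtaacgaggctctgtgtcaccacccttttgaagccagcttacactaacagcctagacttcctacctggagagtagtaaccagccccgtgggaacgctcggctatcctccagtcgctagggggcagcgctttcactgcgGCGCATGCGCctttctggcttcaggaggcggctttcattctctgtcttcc
The NRF1 core occurred 3 times in the Sdha window, where the match nearest to the start began 10 bases before it. It occurred 2 times in the Cox6a1 window and 1 time in the windows of Ndufa5 and Atp5k.

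The arrays had been scaled to a 2% trimmed mean of 500, and the median signal over all probe sets lay between 50.62 and 86.49. The growth factor target genes Fn1 (fibronectin) and Pmepa1 went against the label on both ethanol arrays numbered 1. Fn1 had a signal of 124.2 on Ethanol and TGF-beta1 replicate 1, against 3015 and 4109 on the TGF-beta1 arrays. It had 6828 on Ethanol and FGF2 replicate 1, against 119.7 and 138.9 on the FGF2 arrays. Each array was kept in its labelled group. Medians over all members are given with and without these 2, and values by complex only with both. Without them each ethanol group holds only its replicate 2, so such values rest on 1 array for each ethanol group. Directions within a growth factor refer to the libraries as labelled. The fold change for ethanol averaged over both growth factors uses the 4 ethanol arrays together. It is the same if these 2 arrays are exchanged for each other, while its error is not. This does not hold if only 1 of them belongs to the other group. As a further description, chosen after the data were seen, the values were also computed with the labels of these 2 arrays exchanged. No test was made on that grouping, which the labels do not give. Ethanol went with lower mitosis genes, whose median deviation was -1.68 and -0.79 on Ethanol and TGF-beta1 arrays against 2.12 and 2.14 on TGF-beta1 arrays, and -1.71 and -1.70 on Ethanol and FGF2 arrays against 1.81 and 0.44 on FGF2 arrays. Of the neural stem cell markers 8 of 8 on the array passed the filter, while 0 of 4 endothelial and 0 of 4 microglial markers did.

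No respiratory chain gene changed past the test in any of the 6 comparisons. At an adjusted p of 0.05 (limma, Benjamini-Hochberg over all genes), 0 of 74 members were called for ethanol averaged over both growth factors, where 1.98% of all genes were called (1.8% lower and 0.183% higher). For ethanol within TGF-beta1 0 of 74 members were called, against 1.19% of all genes (1.12% lower and 0.0733% higher). Ethanol within FGF2, the interaction of ethanol and growth factor, and TGF-beta1 against FGF2, both without ethanol and with it, gave 0 of 74 members and 0% of all genes each. The smallest adjusted p of a member in these comparisons was 0.278, 0.283, 0.655, 0.831, 0.981 and 0.982, in the order given. At an unadjusted p of 0.05 the members numbered 3 lower and 0 higher for ethanol averaged (6.16% and 4.63% of all genes), 6 lower and 0 higher within TGF-beta1 (6.03% and 3.45%), and 0 lower and 0 higher within FGF2 (4.26% and 4.05%). The interaction had 5 members lower and 0 higher (2.72% and 1.69%), and the growth factors compared without ethanol had 0 lower and 1 higher (1.74% and 3.21%). With ethanol they had 2 lower and 0 higher (1.6% and 1.03%). Fold changes are on the log2(signal + constant) scale, which understates the change of dim genes, and ± after a fold change is the moderated standard error.

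Seen array by array, the members' medians differed by small amounts. The value of each gene was set against its own mean over the 8 arrays, and the median of these deviations over the 74 members was -0.10 and -0.23 on the Ethanol and TGF-beta1 arrays (replicates 1 and 2), against 0.14 and 0.14 on the TGF-beta1 arrays. It was 0.24 and -0.06 on the Ethanol and FGF2 arrays, against 0.02 and -0.11 on the FGF2 arrays. Over all genes tested these medians lay between -0.01 and 0.05. As labelled, the members were low on both Ethanol and TGF-beta1 arrays and high on both TGF-beta1 arrays, while the Ethanol and FGF2 arrays lay on either side of 0. With the labels of both arrays in doubt exchanged, the Ethanol and TGF-beta1 arrays would stand at 0.24 and -0.23 and the Ethanol and FGF2 arrays at -0.10 and -0.06. The array Ethanol and TGF-beta1 replicate 2 held the lowest value of 33 members (44.6%, against 10.5% of all genes). The library labelled Ethanol and FGF2 replicate 1 held the highest value of 34 members (45.9%, against 23.9% of all genes) and the lowest of 10.

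**Figure D1:**
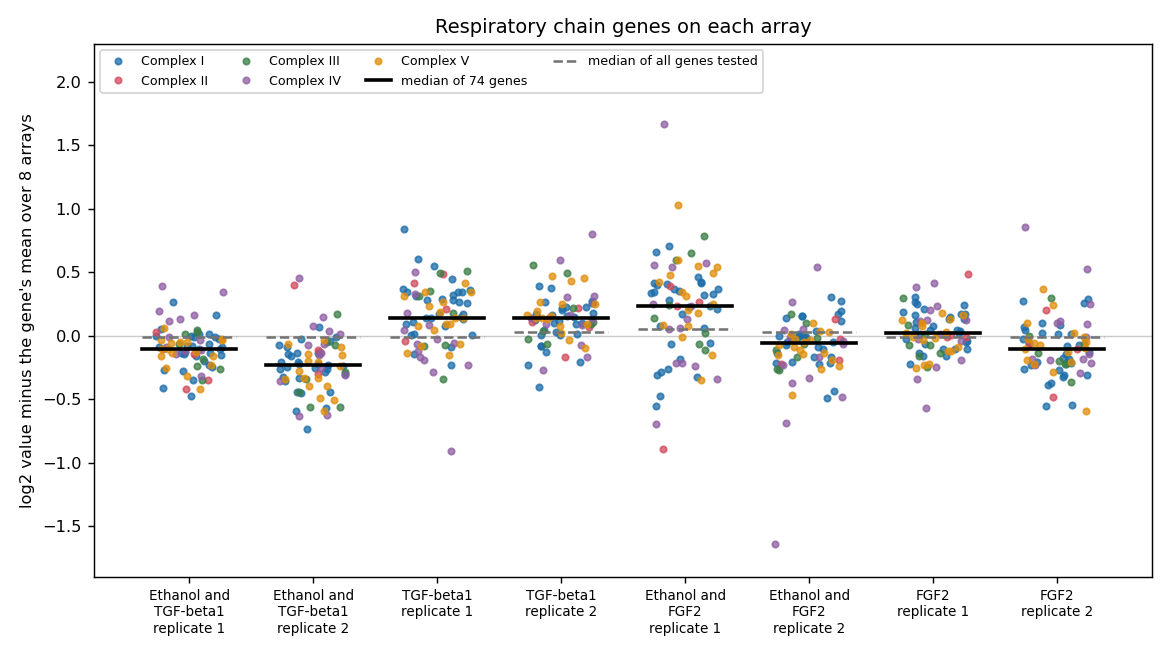
Each point is 1 of the 74 tested respiratory chain genes on 1 array, as its log2 value minus its own mean over the 8 arrays (vertical axis); colours give the complex, solid bars the median of the members and dashed bars the median of all genes tested. The solid bars lie at -0.10 and -0.23 for Ethanol and TGF-beta1 and at 0.14 for both TGF-beta1 arrays, and the widest scatter is on the library labelled Ethanol and FGF2 replicate 1.

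With ethanol in TGF-beta1, 67 of 74 members had a fold change below 0, against 50.8% of all genes, with a median of -0.32 against -0.01. In 49 members (66.2%) both Ethanol and TGF-beta1 arrays lay below both TGF-beta1 arrays, which held for 25.7% of all genes, and in 2 members both lay above (22.2% of all genes). The medians were -0.35 for complex I (30 of 31 below 0), -0.35 for complex II (3 of 4), -0.46 for complex III (7 of 8), -0.14 for complex IV (10 of 14) and -0.33 for complex V (17 of 17). Groups that did not overlap, with ethanol lower, were found for 23 of 31 members of complex I, 3 of 4 of complex II, 6 of 8 of complex III, 5 of 14 of complex IV and 12 of 17 of complex V. Whether complex IV differed from the other complexes was not tested. Without both arrays in doubt, 70 of 74 members lay below 0 with a median of -0.37. Ethanol and TGF-beta1 replicate 2, which held the lowest value of 33 members, was then the only array of its group. With the labels of both arrays in doubt exchanged, 52 of 74 lay below 0 with a median of -0.13 (0.03 over all genes). Both ethanol arrays then lay below both TGF-beta1 arrays in 18 members (19.3% of all genes). Of the single genes described below, the fold change within TGF-beta1 would then be -0.12 for Ndufv1, -0.32 for Ndufs7, -0.60 for Uqcr10, -0.68 for Atp5k, -0.79 for Atp5md, 0.10 for Atp5g1 and 0.49 for Cox5b. The counts and sizes given within TGF-beta1 therefore hold for the labels as deposited. In bulk RNA, fewer cells of a type and less RNA per cell cannot be told apart. Neuronal markers had the opposite sign between the same groups: 5 of 5 lay above 0, their median fold change was 1.50, 1 of them, Dcx, was called higher (limma, adjusted p = 0.0485), and the summed signal of the 6 on the array was 9154 to 13904 on Ethanol and TGF-beta1 arrays against 5530 to 7108 on TGF-beta1 arrays. The marker fold changes and this call were computed only with the labels as deposited. The markers' median deviation was 0.79 and 0.15 on Ethanol and TGF-beta1 arrays (replicates 1 and 2), against -1.40 and -0.33 on TGF-beta1 arrays. On the library labelled Ethanol and FGF2 replicate 1 it was -0.08. Of the neural stem and radial glia markers 6 lay above 0 and 2 below with ethanol in TGF-beta1, as labelled, with a median of 0.14. Of the astrocyte markers 2 lay above 0 and 2 below. The part of these markers and of the mitosis genes in the members' values was not tested.

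**Figure D2:**
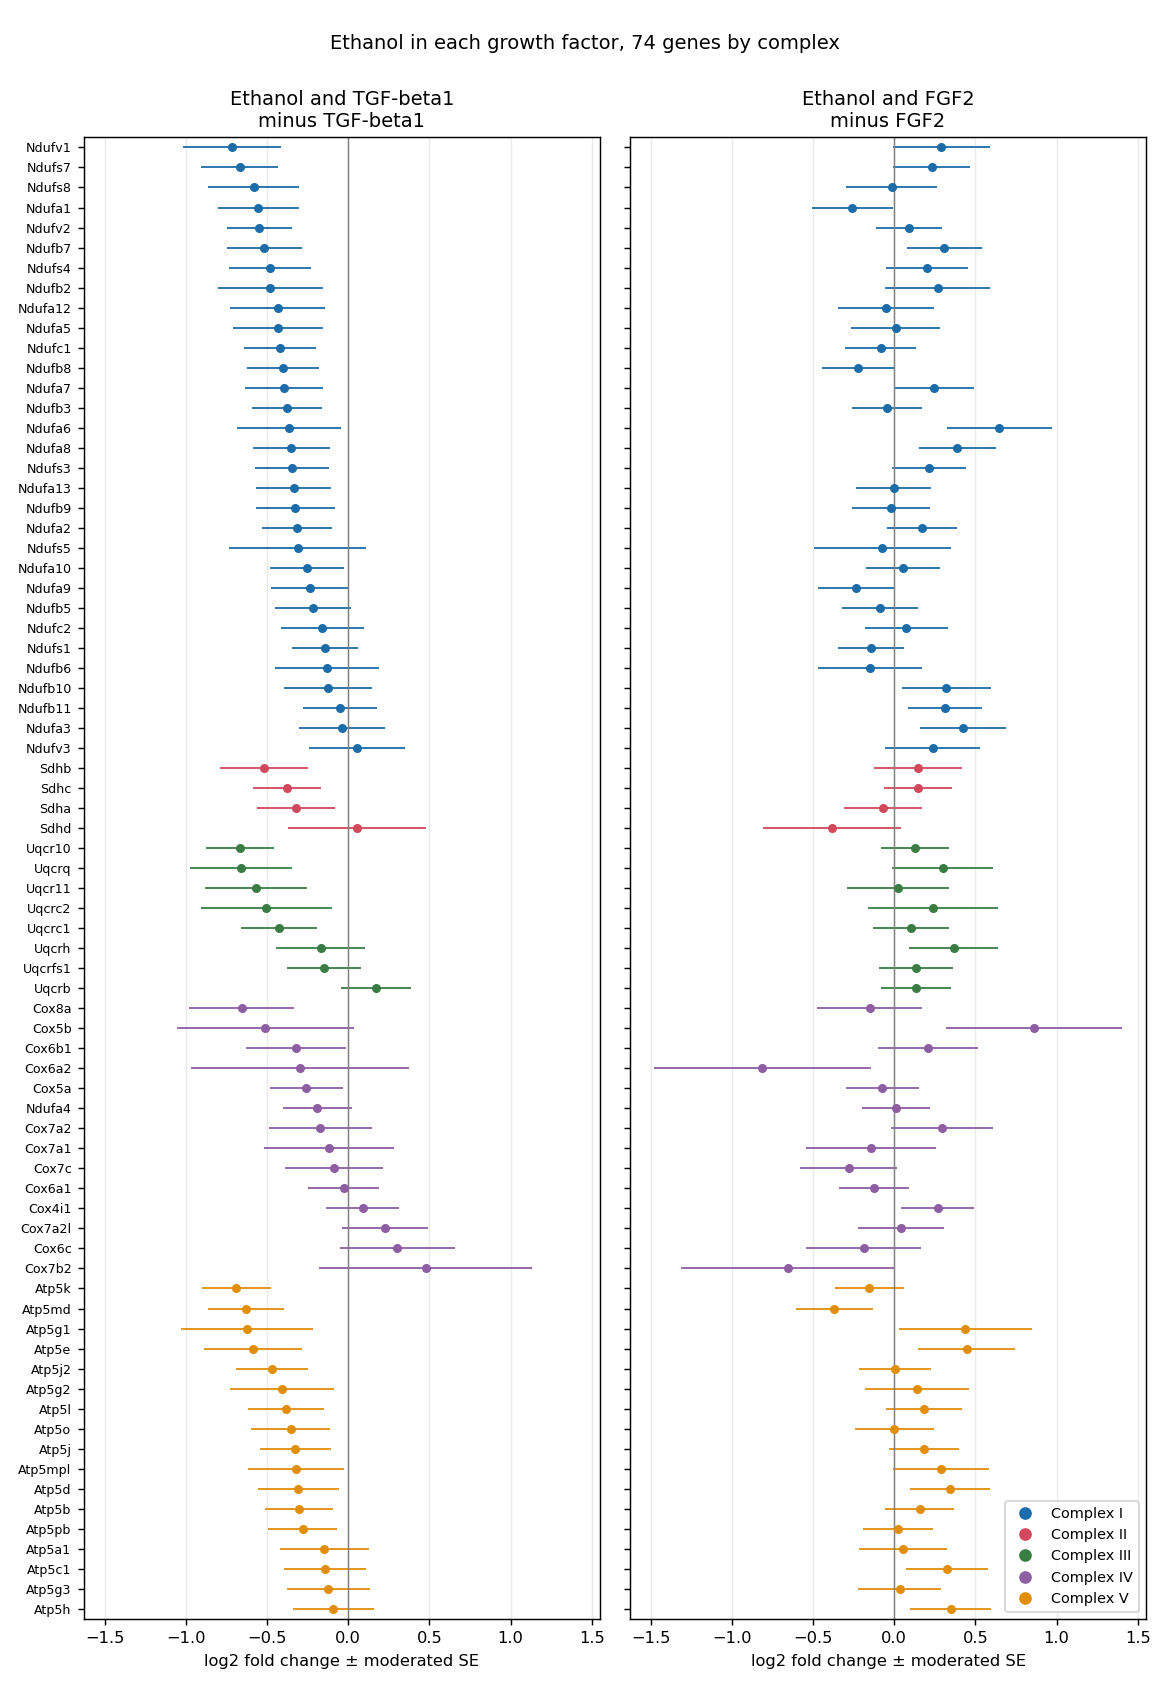
Log2 fold changes of the 74 tested genes (points) with their moderated standard errors (lines), by complex, for Ethanol and TGF-beta1 minus TGF-beta1 (left) and Ethanol and FGF2 minus FGF2 (right). On the left 67 points lie below 0, and on the right 25 lie below 0 and 49 above; no point passed the adjusted threshold.

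In complex I, the 2 members furthest below 0 with ethanol in TGF-beta1 were core subunits that carry electrons. Ndufv1 (chr19:4007499-4012755 on GRCm38.p6), which binds NADH and its flavin cofactor, had signals of 1633 and 1668 on Ethanol and TGF-beta1 arrays, against 2507 and 2969 on TGF-beta1 arrays. On the Ethanol and FGF2 arrays it had 3747 and 1958, against 2120 and 2307 on the FGF2 arrays. The Ethanol and TGF-beta1 arrays were thus the lowest of the 8, and the library labelled Ethanol and FGF2 replicate 1 the highest. Its fold change within TGF-beta1 was -0.72 ± 0.30 (limma, adjusted p = 0.507). Its other 2 probe sets gave -0.68 and -0.47 there. Ndufs7 carries the iron-sulphur cluster that hands electrons to ubiquinone. It had 2958 and 2398 on Ethanol and TGF-beta1 arrays, against 4555 and 3961 on TGF-beta1 arrays, a fold change of -0.67 ± 0.24 (limma, adjusted p = 0.389). On Ethanol and FGF2 arrays it had 4779 and 3568, against 3771 and 3275 on FGF2 arrays, so that the Ethanol and FGF2 array numbered 1 was again the highest. Ndufv2, the iron-sulphur partner of Ndufv1, had 3470 and 3412 on Ethanol and TGF-beta1 arrays, against 5036 and 5040 on TGF-beta1 arrays, with a fold change of -0.55 ± 0.20 (limma, adjusted p = 0.411). These replicates lay close together, and Ndufv2 and the iron-sulphur subunit Ndufs1 had the smallest spread within groups of all members, an SD of 0.08 (log2) each. Ndufs1 itself had a fold change of -0.14 ± 0.20 in TGF-beta1.

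Among the accessory subunits of complex I, which surround the catalytic core, Ndufa1 had the largest fold change for ethanol averaged over both growth factors, -0.41 ± 0.18 (limma, adjusted p = 0.451). Its signals were 1587 and 1967 on Ethanol and TGF-beta1 arrays, against 2773 and 2447 on TGF-beta1 arrays, and 1632 and 1884 on Ethanol and FGF2 arrays, against 2511 and 1758 on FGF2 arrays. Only FGF2 replicate 2 kept the 4 ethanol arrays from lying below the other 4. Without both arrays in doubt the averaged value was -0.28 ± 0.20. Ndufb8, another accessory subunit, averaged -0.31 ± 0.16, and Ndufa8, the member of the complex nearest to 0, averaged 0.02 ± 0.17. Ndufb1 and Ndufb4 did not pass the filter. Ndufb4 had signals of at most 42.41 on every array and Ndufb1 of at most 140.4.

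Complex II, the succinate dehydrogenase of the citrate cycle, has only nuclear subunits. Sdha, the flavoprotein that oxidises succinate, had 3340 and 3936 on Ethanol and TGF-beta1 arrays, against 4150 and 4966 on TGF-beta1 arrays. The groups did not overlap, and the fold change was -0.32 ± 0.24 (limma, adjusted p = 0.723). The values in FGF2 did overlap, at 5137 and 3727 with ethanol against 4292 and 4921 without. Within TGF-beta1 the iron-sulphur subunit Sdhb gave -0.52 ± 0.27 and the membrane anchor Sdhc gave -0.38 ± 0.21. The other anchor, Sdhd, gave 0.06 ± 0.43, with replicates far apart: 2213 and 2865 with ethanol against 3046 and 1925 without it. The second probe set of Sdhd, with a mean log2 value of 10.83 against 11.09, gave -0.65 there. It had 1616 and 1531 on Ethanol and TGF-beta1 arrays, against 3205 and 1913 on TGF-beta1 arrays, so the 2 probe sets disagreed. Averaged over both growth factors the 4 genes lay between -0.20 and -0.12 by the probe sets used. By the same probe sets, values within TGF-beta1 with the labels of both arrays in doubt exchanged would differ. They would be -0.01 for Sdha, -0.11 for Sdhb, -0.19 for Sdhc and -0.41 for Sdhd. Within FGF2 Sdha would then be at -0.38.

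In complex III, Uqcr10 (chr11:4701968-4704344 on GRCm38.p6), a small supernumerary subunit, had 5523 and 5328 on Ethanol and TGF-beta1 arrays, against 8108 and 9187 on TGF-beta1 arrays. It had 6031 and 6992 on Ethanol and FGF2 arrays, against 6211 and 5685 on FGF2 arrays. The 2 TGF-beta1 arrays stood above the other 6. The fold change for ethanol was -0.67 ± 0.21 in TGF-beta1 (limma, adjusted p = 0.295) and 0.13 ± 0.21 in FGF2 (0.909), and the interaction had an adjusted p of 0.831. For ethanol in TGF-beta1 its dimmer probe sets gave -0.58 and -0.06. Uqcrq and Uqcr11, also supernumerary, gave -0.66 ± 0.31 and -0.57 ± 0.31 in TGF-beta1, and the core protein Uqcrc1 gave -0.42 ± 0.23. The other core protein, Uqcrc2, had 3886 and 3627 on Ethanol and TGF-beta1 arrays, against 3897 and 7289 on TGF-beta1 arrays, so only TGF-beta1 replicate 2 stood clearly above the ethanol arrays. The Rieske iron-sulphur protein Uqcrfs1 averaged -0.01 ± 0.16 over both growth factors, nearest to 0 in the complex.

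Complex V had 17 of 17 members below 0 with ethanol in TGF-beta1, each by the probe set used for the gene. Of their other probe sets above the filter, those of Atp5pb and Atp5g1 gave 0.12 and 0.37 there, and the rest lay below 0. The Atp5pb one was nearly as bright as that used, and the Atp5g1 one was dim, at 228.5 or below. Atp5k (chr5:108433246-108434399 on GRCm38.p6), subunit e at the interface of ATP synthase dimers, had 4492 and 3818 on Ethanol and TGF-beta1 arrays, against 6401 and 6993 on TGF-beta1 arrays, and 4538 and 4584 on Ethanol and FGF2 arrays, against 5522 and 4669 on FGF2 arrays. Each of the 4 ethanol arrays lay below each of the 4 without ethanol. This complete separation, with ethanol lower, held for 2 of 74 members (2.7%) and for 4.43% of all genes, and the opposite for 0 of 74 and 2.99%. The fold change was -0.69 ± 0.21 in TGF-beta1 (limma, adjusted p = 0.283) and -0.42 ± 0.15 averaged (0.322). The probe set used carries the suffix _x_at, by which Affymetrix marks probes that may match other transcripts, and the 2 other probe sets of Atp5k gave -0.98 and -0.79 in TGF-beta1. Atp5md (chr19:47083471-47090647), a small subunit at the same interface, was the other separated member. It had 5201 and 3737 on Ethanol and TGF-beta1 arrays, against 6396 and 7306 on TGF-beta1 arrays, and 4173 and 4903 on Ethanol and FGF2 arrays, against 6013 and 5691 on FGF2 arrays. Its averaged fold change of -0.50 ± 0.17 had the smallest adjusted p of all members in that comparison (limma, 0.278), and was -0.56 ± 0.17 without both arrays in doubt. The catalytic subunit Atp5b gave -0.30 ± 0.21 in TGF-beta1. The 3 paralogues that encode the same c subunit of the rotor ring gave -0.63 ± 0.41 for Atp5g1, -0.40 ± 0.32 for Atp5g2 and -0.12 ± 0.26 for Atp5g3. Atp5mpl averaged -0.02 ± 0.21 over both growth factors, nearest to 0 in the complex.

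**Figure D3:**
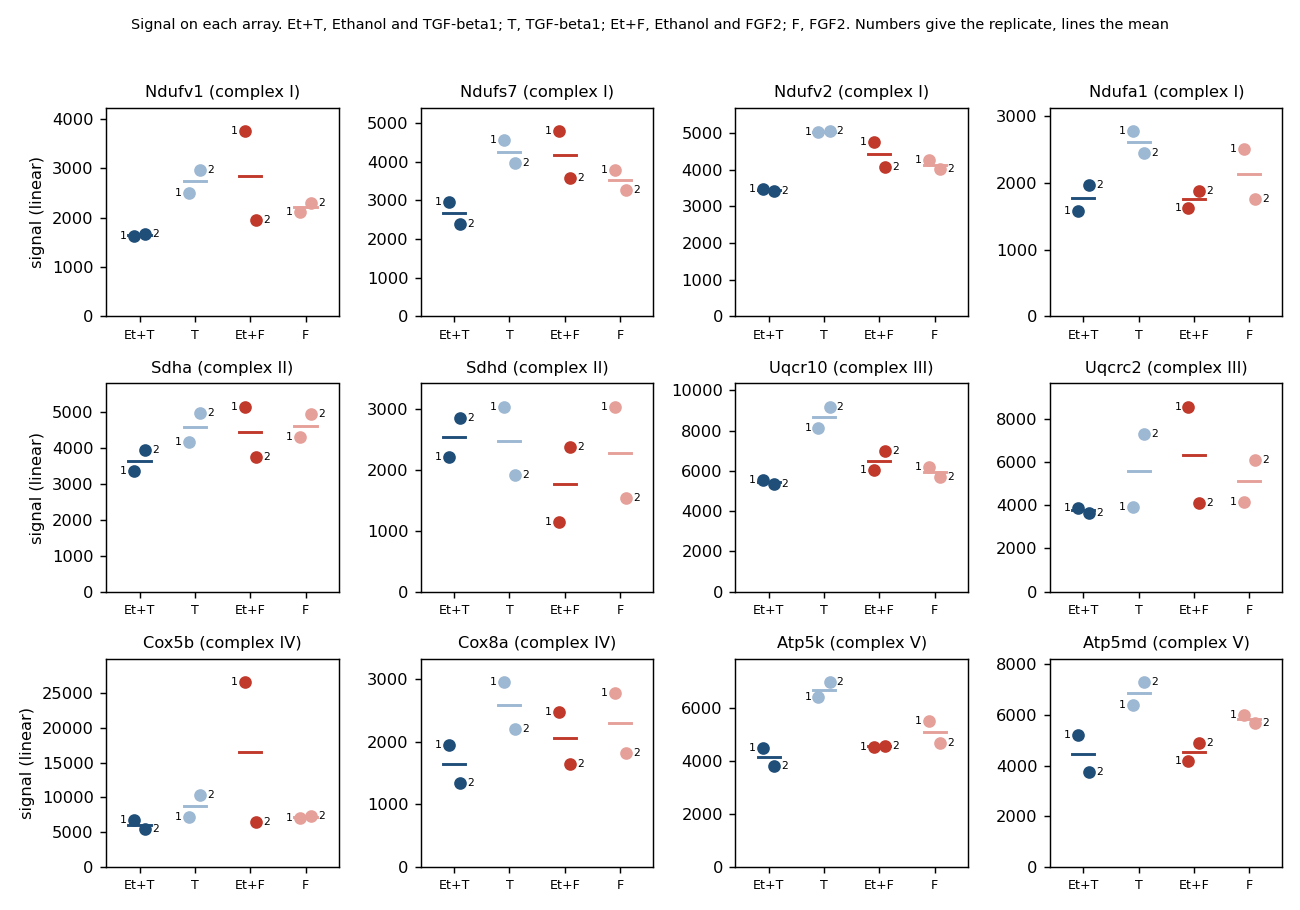
Signal (linear axis from 0) of 12 respiratory chain genes on each array, with the replicate number beside each point and the group mean as a line. In Atp5k and Atp5md the 4 ethanol arrays lie below the 4 others; in Cox5b the library labelled Ethanol and FGF2 replicate 1 stands at 26656 and all others at 10322 or below.

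Complex IV had the largest spread of values and several genes with isoforms of different tissues. Cox8a, the common isoform of subunit 8, had 1952 and 1333 on Ethanol and TGF-beta1 arrays, against 2960 and 2205 on TGF-beta1 arrays, and 2484 and 1649 on Ethanol and FGF2 arrays, against 2786 and 1816 on FGF2 arrays. Its averaged fold change was -0.40 ± 0.23 (limma, adjusted p = 0.591). The groups overlapped in FGF2 only. Cox5b, a nuclear subunit, had 26656 on the library labelled Ethanol and FGF2 replicate 1 and between 5416 and 10322 on the other 7. Its other bright probe sets had 11918, 14763 and 4205 on that array, so the probe sets disagreed on how far it stood out. The fold change of the probe set used was 0.86 ± 0.54 within FGF2, the largest of the members, and -0.16 ± 0.31 without both arrays in doubt.

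The common isoforms Cox4i1, Cox6a1, Cox6b1, Cox7a2 and Ndufa4 had averaged fold changes between -0.09 and 0.18. Cox7a2l, a related protein of respiratory supercomplexes, gave 0.13 ± 0.19. The heart and muscle isoforms Cox6a2 and Cox7a1 and the testis isoform Cox7b2 passed the filter with low signals. Cox6a2 had 62.04 and 73.47 on Ethanol and TGF-beta1 arrays, against 66.57 and 115.4 on TGF-beta1 arrays, and 111.6 and 5.892 on Ethanol and FGF2 arrays, against 69.44 and 108.7 on FGF2 arrays. Its averaged fold change of -0.55 ± 0.47, the largest in complex IV, stood beside 1 outlying value, 5.892 on Ethanol and FGF2 replicate 2. Cox4i2, Cox6b2, Cox8b, Cox8c and Ndufa4l2 did not pass the filter. Cox4i2 had 3.342 and 8.987 on Ethanol and TGF-beta1 arrays, against 5.391 and 4.936 on TGF-beta1 arrays, and 45.13 and 38.14 on Ethanol and FGF2 arrays, against 23.61 and 4.61 on FGF2 arrays. The table holds no detection calls, so whether such values lie above background is not known.

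**Figure D4:**
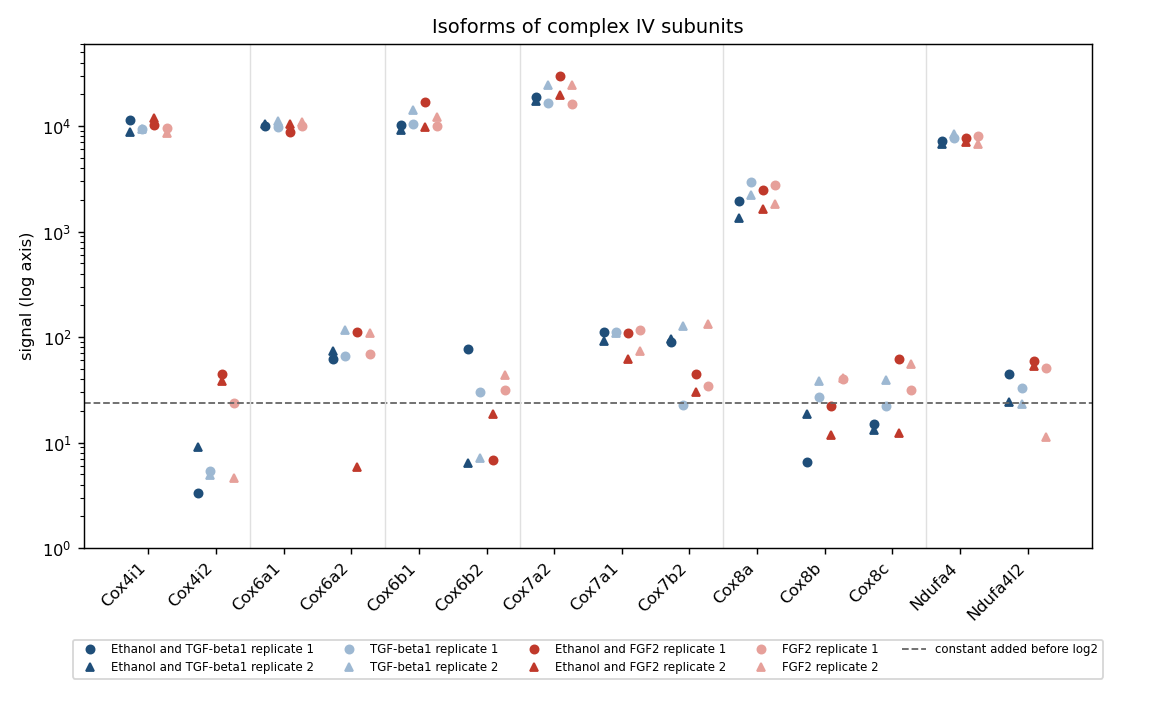
Signal (log axis) of complex IV genes with paralogous isoforms on each array; colours give the group, circles and triangles replicates 1 and 2, and the dashed line the constant of 23.66 added before taking log2. The isoforms that did not pass the filter lie at a signal of 76.81 or below on all arrays; signals of different probe sets are not levels that can be ranked against each other.

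With ethanol in FGF2 the members lay on both sides of 0, with 25 below and 49 above (44.5% and 55.5% of all genes). Their median was 0.10, against 0.05 over all genes. The medians were 0.07 for complex I, 0.04 for complex II, 0.13 for complex III (8 of 8 above 0), -0.10 for complex IV and 0.16 for complex V (15 of 17 above 0). Groups did not overlap for 3 members with ethanol lower (12.8% of all genes) and for 8 with ethanol higher (19.2%). The sign turned on the library labelled Ethanol and FGF2 replicate 1: without it 40 of 74 members lay below 0 and the median was -0.02, and without replicate 2 the median was 0.23. With the labels of both arrays in doubt exchanged, 52 of 74 lay below 0 with a median of -0.05. Of the neuronal markers 5 of 5 lay above 0 with ethanol in FGF2, with a median of 0.42 and 0 called. Their summed signal overlapped, at 9020 to 11810 on Ethanol and FGF2 arrays against 8261 to 11659 on FGF2 arrays. Of the neural stem and radial glia markers 6 lay above 0 and 2 below, with a median of 0.30. The part of these markers in the members' values was not tested. Beside this, the ratio of the 3′ to the 5′ control probe set of Gapdh, a measure of RNA integrity and labelling, was 3.33 and 3.48 on Ethanol and FGF2 arrays against 1.64 and 2.20 on FGF2 arrays. On Ethanol and TGF-beta1 arrays it was 1.93 and 2.06, against 1.70 and 2.20 on TGF-beta1 arrays. The same ratio for the actin control overlapped between the groups in FGF2, at 3.57 and 4.2 with ethanol against 2.35 and 3.61 without. In TGF-beta1 it was 2.78 and 3.07 with ethanol, against 2.36 and 3.03 without. The part of these ratios in the members' values was not tested.

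Averaged over both growth factors, 58 of 74 members lay below 0 for ethanol and 16 above, against 46% and 54% of all genes, with a median of -0.12 against 0.03. The complexes were close to one another, at -0.14, -0.18, -0.15, -0.08 and -0.07 for complexes I to V. Without both arrays in doubt, which left 1 array in each ethanol group, 66 of 74 lay below 0 with a median of -0.21. Leaving out Ethanol and FGF2 replicate 2 alone gave 41 of 74 and a median of -0.03. Of the neuronal markers 5 of 5 lay above 0 in this comparison, with a median of 0.96 and 0 called. Of the neural stem and radial glia markers 7 lay above 0 and 1 below, with a median of 0.24. The part of these markers was likewise not tested. The interaction, ethanol in TGF-beta1 minus ethanol in FGF2, had a median of -0.44 against -0.07 over all genes and was below 0 in 63 of 74 members (55.1% of all genes), and without both arrays in doubt it had a median of -0.33 and was below 0 in 65. With Ethanol and FGF2 replicate 1 alone left out, that median was -0.28. With the labels of both arrays in doubt exchanged it was -0.07, against -0.01 over all genes, and 43 of 74 members lay below 0.

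**Figure D5:**
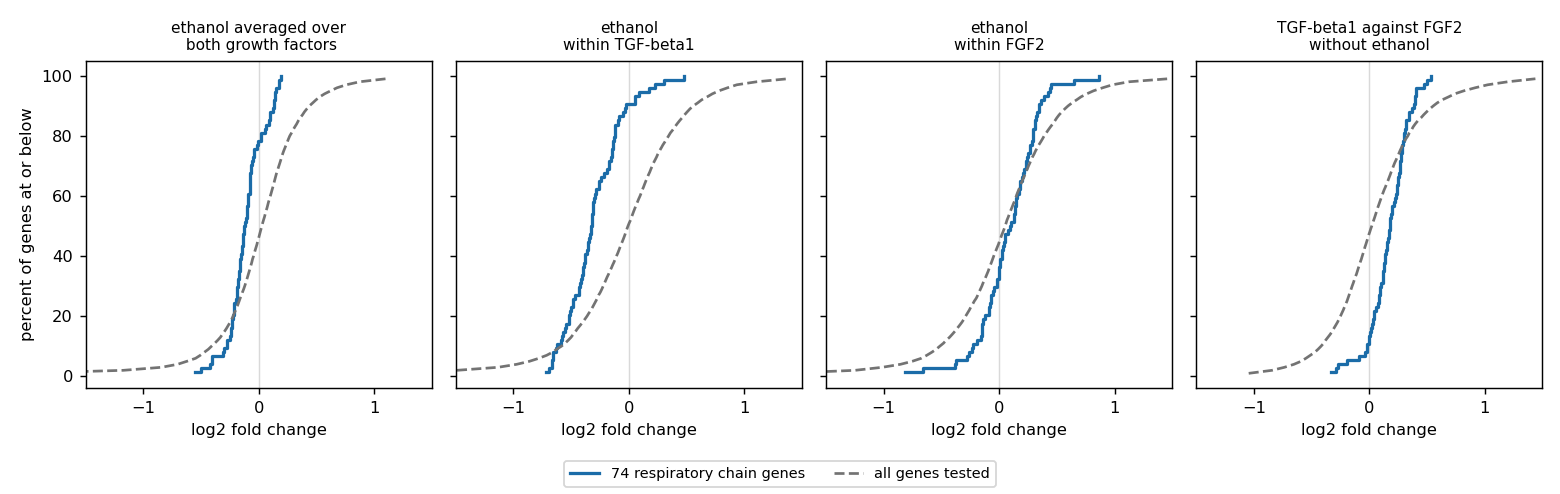
Share of genes (vertical axis, percent) with a log2 fold change at or below the value on the horizontal axis, for the 74 tested respiratory chain genes (solid) and all genes tested (dashed). The solid line lies left of the dashed one over most of its course for ethanol within TGF-beta1, where the medians are -0.32 and -0.01, and the 2 lines cross for ethanol within FGF2.

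Without ethanol, TGF-beta1 against FGF2 gave 65 of 74 members above 0, against 52.4% of all genes, with a median of 0.18 against 0.02. Both TGF-beta1 arrays lay above both FGF2 arrays in 29 members (39.2%, against 20.4% of all genes), of which 15 belonged to complex I, 2 to complex II, 3 to complex III, 0 to complex IV and 9 to complex V. In 3 members both lay below (15.8% of all genes). Uqcr10 had the largest fold change, 0.54 ± 0.21 (limma, adjusted p = 0.981). With ethanol the comparison gave 59 of 74 members below 0 (54.3% of all genes) and a median of -0.26 against -0.04. In 28 members (37.8%, against 19.3% of all genes) both Ethanol and TGF-beta1 arrays lay below both Ethanol and FGF2 arrays. This median was -0.10 without the library labelled Ethanol and FGF2 replicate 1 and -0.42 without replicate 2. Without both arrays in doubt it was -0.21, and 57 of 74 members lay below 0. With the labels of both arrays in doubt exchanged the sign turned, with a median of 0.10 and 51 of 74 members above 0 (0.02 over all genes). Each of these comparisons shares arrays with an ethanol comparison, so their signs are not separate evidence.

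Other genes of mitochondrial function were described from lists written by hand. Their counts and medians hold for the labels as deposited and were not computed without the arrays in doubt or with their labels exchanged. Over all genes 50.8% lay below 0 for ethanol in TGF-beta1, with a median of -0.01. Of 45 tested assembly factors, which build the complexes, 37 lay below 0 for ethanol in TGF-beta1, with a median of -0.26. Among them Ndufaf2, which helps to build complex I, had 1054 and 1127 on Ethanol and TGF-beta1 arrays, against 2300 and 1809 on TGF-beta1 arrays, and 1240 and 1059 on Ethanol and FGF2 arrays, against 2023 and 1219 on FGF2 arrays. Its averaged fold change was -0.67 ± 0.20 (limma, adjusted p = 0.198). Of 19 electron carriers and genes of quinone synthesis 15 lay below 0 in TGF-beta1, with a median of -0.24. Coq7, a hydroxylase of ubiquinone synthesis, had 647.6 and 916.2 on Ethanol and TGF-beta1 arrays, against 1538 and 1501 on TGF-beta1 arrays, and 879.2 and 785.9 on Ethanol and FGF2 arrays, against 1503 and 1117 on FGF2 arrays. The 4 ethanol arrays lay below the 4 others, and the averaged fold change was -0.79 ± 0.18 (limma, adjusted p = 0.0792). Cycs, cytochrome c itself, averaged -0.31 ± 0.21. Of 76 mitochondrial ribosomal protein genes 69 lay below 0 in TGF-beta1 with a median of -0.36. Of 18 genes of the citrate cycle and pyruvate dehydrogenase 12 did so with a median of -0.14. Fh1, fumarate hydratase, averaged -0.52 ± 0.14 (limma, adjusted p = 0.141). Of 19 regulators of mitochondrial biogenesis and of the mitochondrial genome 10 lay below 0, with a median of -0.02. Among these the fold change in TGF-beta1 was -0.51 ± 0.43 for Nrf1 and 0.13 ± 0.28 for Gabpa, whose motif letters are shown above, and -0.07 ± 0.20 for Tfam, which packages mitochondrial DNA. In these lists 0 genes were called in any of the 6 comparisons. Coq7, Fh1 and Ndufaf2 were picked after their values were seen.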

How the data were processed

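Expression was measured on 8 Affymetrix arrays, 2 in each of 4 groups, assigned by the labels. The deposited values are signal intensities on a linear scale, 1 for a probe set and array, made by the authors with MAS5 and GCOS, per the submitters' processing notes, with versions not given in the sources used here. Of 45101 probe sets, 64 were controls and 34945 had exactly 1 gene symbol in the platform annotation. Another 932 had several and were left out, 9 of them with a symbol that met the rule for members. Subunit genes without a probe set of exactly 1 symbol, such as Cox7b, are therefore not among the members. The probe set with the highest mean log2 signal stood for a gene. Before taking log2, a constant of 23.66 (25th percentile of the whole table) was added, with no further normalization. Genes whose mean log2 value reached 6.402, its 40th percentile, were tested. All 81 members matched RefSeq (GRCm38.p6).

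Genes were fitted with limma 3.58.1 in R 4.3.3 (4 group means, 4 residual degrees of freedom, eBayes with a mean trend and 4.935 prior degrees of freedom), with two-sided p-values adjusted over 10916 genes. The number of arrays limits the precision. The genes named were, in each complex, the 2 with the largest and the 1 with the smallest averaged ethanol fold change, isoform families, the Sdh genes, and members whose probe sets disagreed. Others named, among them Ndufv1, Ndufv2, Ndufs1, Ndufs7, Uqcrc1, Uqcrc2 and Atp5b, were chosen after their values were seen. Members and lists were chosen with earlier results of these data known. Alternatives covered the constant, the filter, array scaling, probe set choice, a replicate block, moderation without a trend, and each array left out. Added after the data were seen was the exchange of labels of both arrays in doubt.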

Additional observations from a re-analysis of the deposited data

How the results depend on the processing

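The count of members called was 0 in each of the 6 comparisons and under each of 19 alternatives with a test. This includes the replicate block, with 0 members called, and every fit without 1 array or without both arrays in doubt. The deviations of same-numbered arrays correlated at 0.466 between TGF-beta1 and FGF2. They correlated at -0.438 between the 2 ethanol groups and from -0.132 to 0.044 in the other pairs of groups. Every pair except TGF-beta1 with FGF2 includes an array in doubt, so these values cannot tell if the numbers pair the groups. Each group holds 1 array of each number, so a replicate block can change only the error and not a fold change. The median of 0.18 for TGF-beta1 against FGF2 without ethanol therefore stayed as it was, and 0 members were called with the block. Over these alternatives the members' median fold change ran from -0.21 to -0.03 for ethanol averaged, -0.37 to -0.23 within TGF-beta1, -0.02 to 0.23 within FGF2, -0.55 to -0.28 for the interaction, and 0.10 to 0.27 and -0.42 to -0.10 for TGF-beta1 against FGF2 (without ethanol, then with it). Exchanging the labels of both arrays in doubt, added after the data were seen and computed without a test, gave medians outside these ranges within TGF-beta1 (-0.13), within FGF2 (-0.05), for the interaction (-0.07) and for TGF-beta1 against FGF2 with ethanol (0.10). Centring the arrays on their medians gave 62 of 74 members below 0 within TGF-beta1 (median -0.23) and 56 of 74 above 0 for TGF-beta1 against FGF2 without ethanol (median 0.10). Of 44 members with 2 or more probe sets above the filter, 14 had probe sets on both sides of 0 for ethanol averaged: Atp5c1, Atp5d, Atp5h, Cox5b, Cox6c, Cox7c, Ndufa10, Ndufa3, Ndufb11, Ndufb2, Ndufb9, Uqcr10, Uqcrb and Uqcrq. The count was not made within TGF-beta1, where Atp5pb and Sdhd, among others, had probe sets on both sides of 0.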
